A study of Mus musculus with 3 samples.

Results

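Ptgds encodes lipocalin-type prostaglandin D synthase, also known as beta-trace, a secreted protein that turns prostaglandin H into prostaglandin D and carries small lipophilic molecules such as retinoids in its barrel-shaped pocket. In the brain it is known as a product of the leptomeninges, the choroid plexus and oligodendrocytes, and it is among the abundant proteins of the cerebrospinal fluid. Prostaglandin D acts through the receptors Ptgdr and Ptgdr2 and is known for its role in sleep. Ptgds (ENSMUSG00000015090) lies on the minus strand of chromosome 2 (mm10, chr2:25466709-25470046 in GENCODE M21), no other annotated gene overlaps it, and it is 1 of the 32285 genes in the deposited matrices. It was chosen by its measured levels in meningeal, oligodendrocyte, ensheathing and neuronal nuclei of these same libraries, so those levels are given as a description.

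The data were 3 single-nucleus RNA-seq libraries from the prefrontal cortex of male mice aged 6 to 8 weeks. The C57BL/6 library was a pool of 5 wild-type mice. The Nav1 KO library was a pool of 4 mice on C57BL/6 that carry a CRISPR deletion inside the first exon of Nav1, a neuron navigator gene. The BTBR library came from the inbred strain BTBR T<+> Itpr3<tf>/J, for which the labels state no count of mice. No group had a treatment. The labels call the cells neurons, but per the study's methods nuclei were sorted to a fixed mixture of NeuN-positive and NeuN-negative nuclei, so shares of cell types partly follow the gate. Each group was 1 library, so no test between groups was possible, and every interval below is a 95% interval that covers counting error only.

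After the study's filter (at least 200 genes and under 10% mitochondrial counts), 14630 C57BL/6, 14056 Nav1 KO and 14777 BTBR nuclei remained, with 38704723, 50965774 and 48939692 UMIs and medians of 2074, 2754 and 2510 UMIs per nucleus. Any pair of libraries shared 61 to 71 barcodes. Nav1 itself was counted at 345 CPM in C57BL/6, 264 CPM in Nav1 KO and 146 CPM in BTBR. Since the deletion removes only a stretch of 1 exon and counts were summed over the whole gene, this level does not check the knockout label. Nuclei carrying olfactory bulb markers were also unequally captured, with 38 mitral or tufted type nuclei in C57BL/6, 547 in Nav1 KO and 344 in BTBR.

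Ptgds was a much larger part of the RNA in the Nav1 KO and BTBR libraries than in C57BL/6. Over all nuclei, the C57BL/6 library held 7435 Ptgds UMIs, or 192 CPM (UMIs of the gene relative to all UMIs of the library; 95% interval 188 to 197). The Nav1 KO library held 37102, or 728 CPM (721 to 735). The BTBR library held 24975, or 510 CPM (504 to 517). At least 1 Ptgds UMI was found in 17.6% of C57BL/6, 46.4% of Nav1 KO and 36.2% of BTBR nuclei. Whole-library values mix cell types in different proportions, so each class of nuclei is described on its own below.

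Classes were obtained by clustering all nuclei together with Ptgds kept out of the genes used, and were named from marker lists. Meningeal fibroblast-like nuclei numbered 217 in C57BL/6, 367 in Nav1 KO and 336 in BTBR, and all 8 markers of their list were detected, led by Slc6a13, a GABA and taurine transporter, and Ranbp3l. Outer meningeal-like nuclei, which carried the transporter gene Slc47a1 and the transcription factor gene Foxd1, numbered 144, 343 and 172 in the same order. Slc47a1 stood at 1105, 1138 and 1766 CPM in them and gave 1, 8 and 7 UMIs in the fibroblast-like class. Foxd1 separated the classes less, at 771, 1125 and 1093 CPM against 733, 824 and 852 CPM. Of the same list, Aldh1a2, Crabp2 and Dpp4 gave at most 16 UMIs in any library. Bnc2 of the fibroblast list gave 4, 21 and 5 UMIs in the fibroblast-like class and was among the 10 leading genes of the outer one. Oligodendrocyte-like nuclei numbered 235, 129 and 120 and carried the myelin genes Mbp and Mag. Olfactory ensheathing glia-like nuclei, marked by Prss56, Fabp7, Apod, Npy and Frzb, numbered only 15 in C57BL/6 against 252 in Nav1 KO and 56 in BTBR, and Sostdc1 of their list was listed at 0 in them. Neurons formed 7 clusters with 12657, 10550 and 12052 nuclei.

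On CPM, meningeal fibroblast-like nuclei held the highest Ptgds level of all classes in each library. Their level was 10053 CPM (9590 to 10532) in C57BL/6, 21923 CPM (21497 to 22356) in Nav1 KO and 18794 CPM (18336 to 19260) in BTBR. In other words, 1.01%, 2.19% and 1.88% of all UMIs in this class were Ptgds. The class made up 1.48%, 2.61% and 2.27% of the nuclei of its library and held 23.8%, 27.1% and 25.6% of that library's Ptgds UMIs. Its nuclei were shallow, with medians of 751, 1125 and 933 UMIs. Per nucleus, the class held 8.16, 27.4 and 19.0 Ptgds UMIs. Deeper nuclei with meningeal and astrocyte markers together, described below, held more per nucleus, at 12.2, 29.4 and 26.1.

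Within the class, Ptgds varied widely from nucleus to nucleus. The median meningeal fibroblast-like nucleus carried 3 Ptgds UMIs in C57BL/6, 14 in Nav1 KO and 12 in BTBR. The largest number in 1 nucleus was 53, 714 and 184. At least 10 Ptgds UMIs were found in 30.0%, 60.5% and 57.4% of these nuclei, and none at all in 21.2%, 8.17% and 6.85%. At an equal 1000 UMIs drawn from each nucleus, with shallower nuclei left out, Ptgds was found in 31 of 34, 215 of 231 and 133 of 140 nuclei, and the exact intervals of these shares overlapped. Shares this high leave little room for a difference, and only 34 of 217 C57BL/6 nuclei were deep enough. The mean nucleus of the same draw held 11.3, 20.4 and 20.1 Ptgds UMIs. At 500 UMIs the share was 70.5% (64.0 to 76.5) in C57BL/6, below 84.5% (80.4 to 88.0) in Nav1 KO and 88.4% (84.5 to 91.6) in BTBR. The share of neurons with Ptgds at 1000 UMIs, from median depths of 2151, 3023 and 2608 UMIs, was 6.87%, 16.3% and 13.1%.

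**Figure D1:**
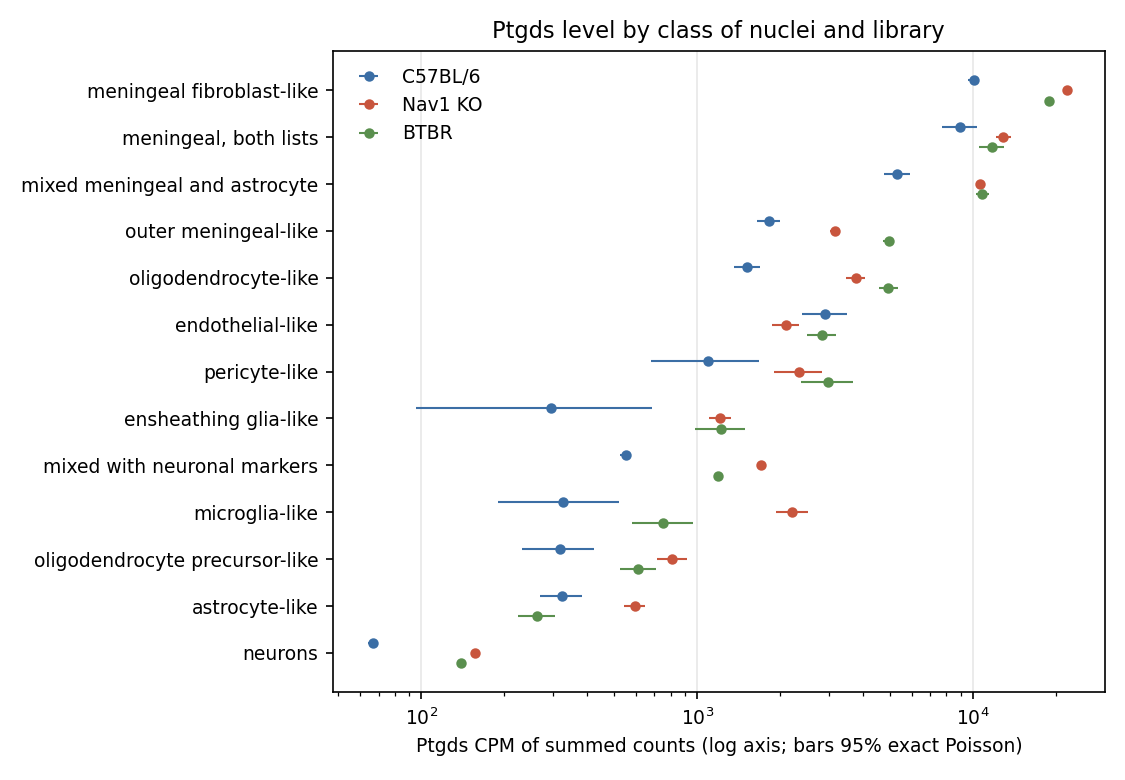
Ptgds level in CPM of summed counts (log axis) for 13 classes of nuclei, with 1 point per library and 95% exact Poisson intervals. Meningeal fibroblast-like nuclei sit at 10053 to 21923 CPM and neurons at 66.9 to 156 CPM, with C57BL/6 the lowest library in both.

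Other meningeal nuclei also carried Ptgds, at graded levels. A small cluster with Dpp4 among its leading genes matched the meningeal and the outer meningeal lists about equally and held 8948, 12845 and 11667 CPM over 17, 44 and 26 nuclei. Nuclei with meningeal and astrocyte markers together held 5301, 10589 and 10797 CPM over 26, 113 and 49 nuclei. Outer meningeal-like nuclei held 1818 CPM (1651 to 1997), 3166 CPM (3038 to 3299) and 4933 CPM (4692 to 5183). The meningeal fibroblast-like level was therefore 5.53 times the outer meningeal-like level in C57BL/6, 6.92 times in Nav1 KO and 3.81 times in BTBR. The outer meningeal-like class was the only one of the 4 in which the BTBR level lay above that of Nav1 KO beyond the intervals, at 0.642 times (0.602 to 0.685) for Nav1 KO over BTBR. In the cluster with both lists and in the mixed one, the intervals of those libraries overlapped.

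Oligodendrocyte-like nuclei also carried Ptgds. Their Ptgds level was 1520 CPM (1364 to 1688) in C57BL/6, 3757 CPM (3472 to 4060) in Nav1 KO and 4930 CPM (4546 to 5337) in BTBR. The mean nucleus held 1.48, 4.97 and 5.08 Ptgds UMIs, and 18.7%, 48.1% and 54.2% of nuclei held at least 3. At 1000 UMIs per nucleus, 33 of 78, 55 of 81 and 34 of 43 oligodendrocyte-like nuclei had Ptgds, or 42.3%, 67.9% and 79.1%. The meningeal fibroblast-like level was 6.61 times that of the oligodendrocyte-like nuclei in C57BL/6, 5.84 times in Nav1 KO and 3.81 times in BTBR. As the class is small, oligodendrocyte-like nuclei held only 4.67%, 1.73% and 2.44% of the Ptgds UMIs of their library. The order of oligodendrocyte-like and outer meningeal-like nuclei was not the same in each library. The outer meningeal-like level was the higher by value in C57BL/6 and the lower in Nav1 KO, there beyond the intervals, while in C57BL/6 and BTBR the intervals overlapped.

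Ensheathing glia-like nuclei had less Ptgds again. In C57BL/6 the 15 nuclei gave 5 Ptgds UMIs, or 294 CPM (95.6 to 687), too few to place the class. The Nav1 KO level was 1210 CPM (1103 to 1323) and the BTBR level 1218 CPM (983 to 1492), which overlapped. The oligodendrocyte-like level was 3.11 times (2.76 to 3.50) the ensheathing one in Nav1 KO and 4.05 times (3.25 to 5.09) in BTBR. At least 3 Ptgds UMIs were found in 11.1% of Nav1 KO and 17.9% of BTBR ensheathing glia-like nuclei and in 0 of 15 nuclei in C57BL/6.

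**Figure D2:**
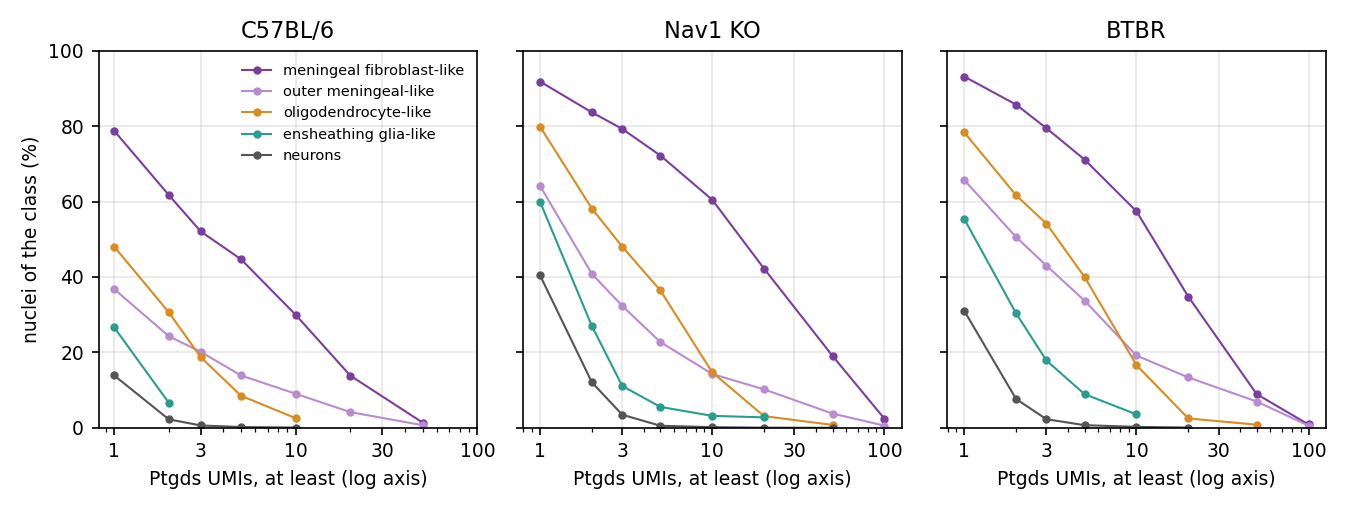
Share of nuclei (percent) with at least the number of Ptgds UMIs on the x axis (log axis), for 5 classes in each library; points at 0 are not drawn. At 10 UMIs, 30.0% to 60.5% of meningeal fibroblast-like nuclei remain, against at most 0.257% of neurons.

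In the vessel classes, a large share of the Ptgds UMIs came from single nuclei. Ptgds was found in 33.3%, 54.3% and 58.1% of endothelial-like nuclei and in 33.3%, 47.1% and 40.9% of pericyte-like nuclei, against 13.9%, 40.4% and 31.0% of neurons. In C57BL/6, 94 of the 115 Ptgds UMIs of endothelial-like nuclei came from 1 nucleus, and the level fell from 2899 to 678 CPM without it. The same removal took Nav1 KO from 2089 to 1668 CPM and BTBR from 2822 to 2284 CPM. In pericyte-like nuclei, the nucleus with the most Ptgds held 47.6%, 59.8% and 52.9% of the class's UMIs of the gene. In microglia-like nuclei, 135 of 222 Ptgds UMIs in Nav1 KO came from 1 nucleus. The microglia-like level was 326 CPM in C57BL/6, 2213 CPM in Nav1 KO and 754 CPM in BTBR, and 253, 895 and 393 CPM without the top nucleus of each. Astrocyte-like nuclei held 322, 593 and 263 CPM, and oligodendrocyte precursor-like nuclei 317, 811 and 611 CPM.

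In addition, 3 sub-clusters carried neuronal and non-neuronal markers together and were left unnamed. They numbered 730, 1266 and 1200 nuclei and held 23.8%, 31.0% and 33.5% of the Ptgds UMIs of their library, as much as or more than the meningeal fibroblast-like nuclei. Their Ptgds level was 551, 1705 and 1186 CPM. They were deep, with median depths of 3396, 3982 and 3988 UMIs, and 34.0%, 49.5% and 37.7% of them lay in the top 10% of doublet scores of their library, against 7.42%, 5.80% and 6.69% of neurons. The part of doublets in their Ptgds level was not tested.

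The level in neurons was examined for signs of free RNA, that is, RNA that entered droplets without its cell. It was 66.9 CPM (64.1 to 69.7) in C57BL/6, 156 CPM (153 to 160) in Nav1 KO and 140 CPM (136 to 143) in BTBR. Because there were so many of them, neurons held 30.7%, 17.1% and 22.2% of all Ptgds UMIs. Most neurons with Ptgds had a single UMI of it, with exactly 1 in 11.7%, 28.4% and 23.4% of neurons and at least 3 in 0.624%, 3.48% and 2.29%. The variance over neurons, at 0.351, 1.48 and 1.32, was above the mean of 0.180, 0.602 and 0.461 UMIs per nucleus.

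The Ptgds of neurons rose far less with the depth of the nucleus than neuronal genes did. Neurons of each library were split into 4 equal bins by depth, and the deepest bin had 4.70, 4.67 and 5.31 times the median UMIs of the shallowest. In C57BL/6, the bins held 0.178, 0.166, 0.172 and 0.204 Ptgds UMIs per nucleus. Nav1 KO neurons held 0.503, 0.554, 0.578 and 0.771, and BTBR neurons 0.424, 0.374, 0.405 and 0.639. From the shallowest to the deepest bin, Ptgds per nucleus thus changed 1.14, 1.53 and 1.51 times, while Slc17a7, the vesicular glutamate transporter of excitatory neurons, rose 5.54, 6.52 and 7.79 times. The sum of the 7 meningeal reference genes rose 1.54, 1.42 and 1.56 times, and that of the 4 myelin genes Mbp, Mobp, Mag and Mog 2.02, 2.18 and 3.27 times. On the CPM scale, where the total of the nucleus is the divisor, Ptgds fell from 186 to 37.9 CPM, from 375 to 98.7 CPM and from 405 to 94.0 CPM over the bins.

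**Figure D3:**
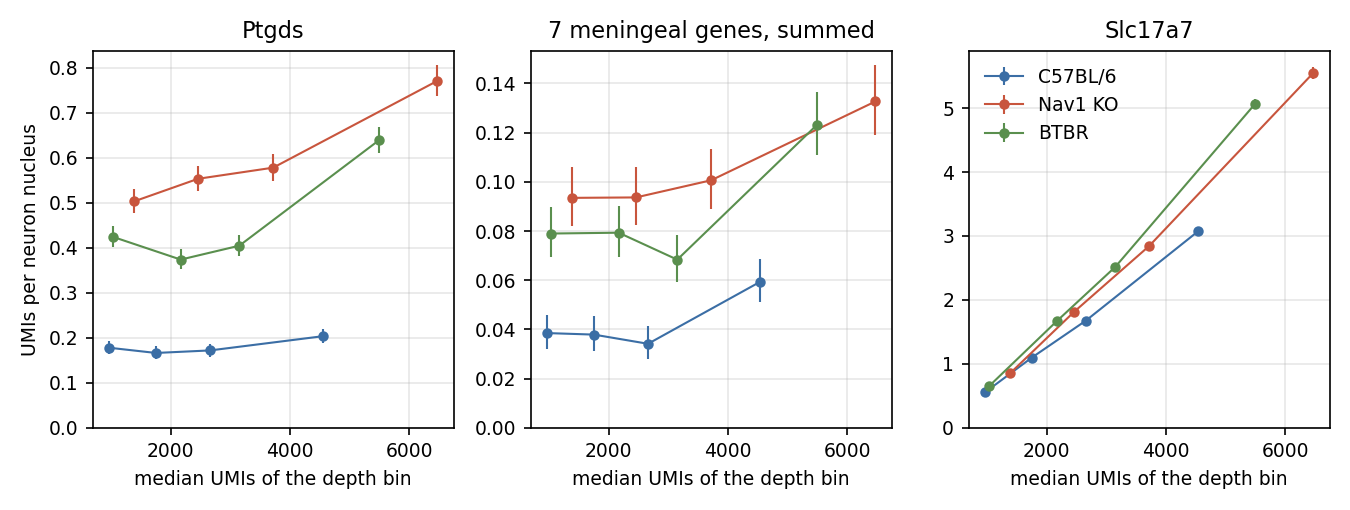
UMIs per neuron nucleus against the median UMIs of 4 depth bins of the neurons of each library, for Ptgds, for the sum of 7 meningeal genes and for Slc17a7, with 95% exact Poisson intervals and axes from 0. Ptgds per nucleus changes 1.14 to 1.53 times over the bins and Slc17a7 5.54 to 7.79 times.

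The same held across types of neurons. All 7 neuron clusters had Ptgds, from excitatory and inhibitory to medium spiny and mitral or tufted type nuclei. Their levels ran from 39.8 to 168 CPM in C57BL/6, from 116 to 337 CPM in Nav1 KO and from 103 to 395 CPM in BTBR. The highest level was in the same cluster in each library, an excitatory cluster with the lowest median depth of all in that library (1249, 1808 and 1072 UMIs). Per nucleus, the clusters lay closer together, from 0.121 to 0.233 Ptgds UMIs in C57BL/6, from 0.508 to 0.748 in Nav1 KO and from 0.293 to 0.669 in BTBR.

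Ptgds per neuron rose far less than depth did. CPM values of shallow classes and of neurons thus cannot be set side by side without regard to depth. Each class was therefore also compared with neurons of the same library within the middle 50% of the depths of that class, in Ptgds UMIs per nucleus, a comparison added after the data had been seen. On CPM, meningeal fibroblast-like nuclei were 150 times (141 to 160), 140 times (136 to 145) and 135 times (130 to 140) above neurons in C57BL/6, Nav1 KO and BTBR. At like depth they were 41.7 times (35.6 to 49.1), 43.3 times (39.3 to 47.8) and 35.7 times (32.6 to 39.3) above. Nuclei with meningeal and astrocyte markers together stood higher at like depth, at 60.3 times (49.2 to 73.4), 54.5 times (51.2 to 58.0) and 60.1 times (54.3 to 66.4). Those values rested on 12, 57 and 25 nuclei. The cluster with both meningeal lists stood at 48.5, 47.6 and 30.8 times. Oligodendrocyte-like nuclei were 22.7, 24.0 and 35.3 times above neurons on CPM and 6.49 times (5.25 to 8.01), 9.38 times (8.10 to 10.8) and 8.49 times (7.31 to 9.84) at like depth. Ensheathing glia-like nuclei were 4.40, 7.73 and 8.72 times above on CPM, and at like depth 2.28 times (0.469 to 6.72, from 3 UMIs), 2.52 times (2.11 to 3.003) and 2.31 times (1.52 to 3.39).

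The other glia lay near the level of neurons on the same measure. Astrocyte-like nuclei were 4.82, 3.79 and 1.89 times above neurons on CPM, and 1.17 times (0.815 to 1.63), 1.20 times (1.01 to 1.42) and 0.721 times (0.539 to 0.945) at like depth. Oligodendrocyte precursor-like nuclei stood at 1.31, 1.34 and 0.938 times and microglia-like nuclei at 1.67, 1.00 and 0.767 times, with the interval of each including 1 except that of the precursors in Nav1 KO (1.02 to 1.72). Outer meningeal-like nuclei stayed above neurons at 6.42, 7.39 and 16.0 times. Endothelial-like nuclei stood at 3.79, 6.41 and 26.3 times, over 12, 34 and 21 nuclei. Pericyte-like nuclei stood at 1.94 times (0.525 to 5.03), 10.5 and 7.80 times, over 11, 16 and 10 nuclei. Single nuclei with much Ptgds were not taken out of these values. The order meningeal fibroblast-like, oligodendrocyte-like, ensheathing glia-like held at like depth in each library by value, although the C57BL/6 interval of the ensheathing nuclei overlapped that of the oligodendrocyte-like nuclei.

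**Figure D4:**
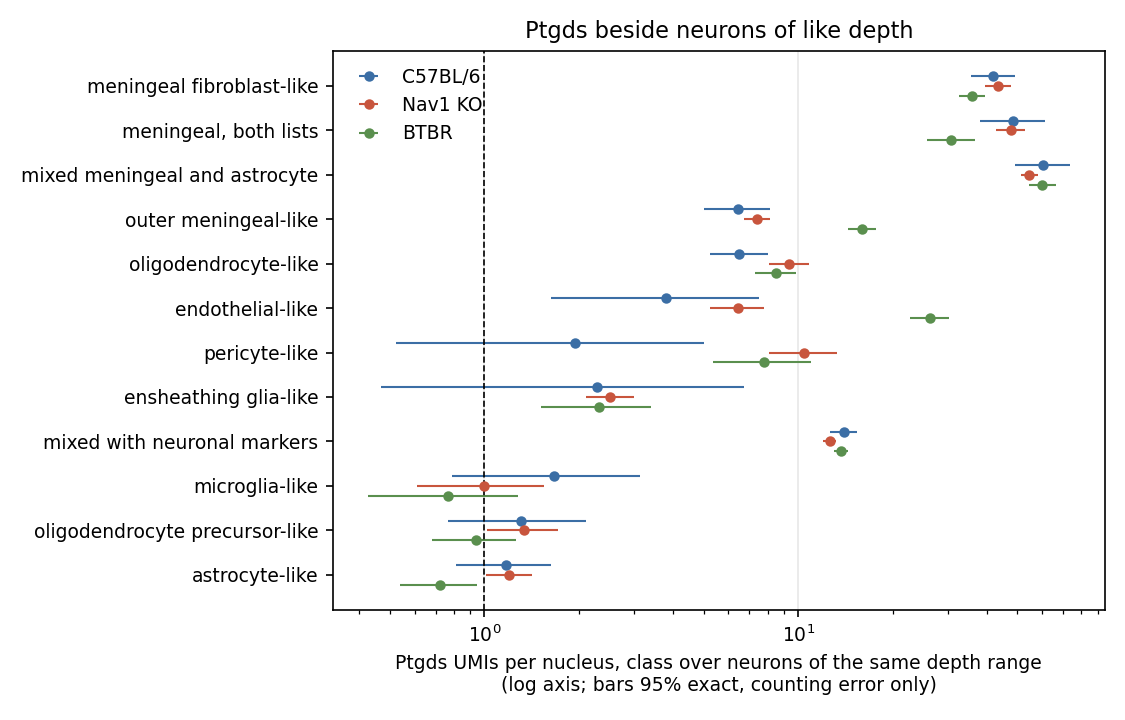
Ptgds UMIs per nucleus in each class divided by those of neurons of the same library within the middle 50% of the depths of the class (log axis; 95% exact intervals; dashed line at 1). Meningeal fibroblast-like nuclei lie at 35.7 to 43.3, oligodendrocyte-like nuclei at 6.49 to 9.38, and astrocyte-, precursor- and microglia-like nuclei between 0.721 and 1.67.

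Genes that mark the source classes were read in neurons in the same way. Ptgds in neurons stood at 0.665% (0.625 to 0.708) of its meningeal fibroblast-like CPM in C57BL/6, 0.714% (0.692 to 0.737) in Nav1 KO and 0.743% (0.717 to 0.770) in BTBR. The medians of the 7 meningeal reference genes were 0.395%, 0.488% and 0.400% of the same class. Among them, the GABA transporter gene Slc6a13 stood at 0.156%, 0.183% and 0.247%, Ranbp3l at 0.221%, 0.140% and 0.228% and Igfbp2, an insulin-like growth factor binding protein gene, at 0.995%, 1.73% and 1.10%. Slc47a1 stood far higher, since it marks the outer meningeal-like class and gave only 1, 8 and 7 UMIs in this one. Against oligodendrocyte-like nuclei, neurons stood at 4.40%, 4.16% and 2.83% for Ptgds, but at a median of 0.870%, 0.514% and 0.595% for the 4 myelin genes, the highest of which stood at 1.37%, 1.47% and 0.739%. Ptgds in neurons was thus within the range of the meningeal genes and above that of the myelin genes. Ttr, the transthyretin gene of the choroid plexus, gave only 2, 12 and 13 UMIs in all neurons.

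The number of Ptgds UMIs for each UMI of the 7 meningeal genes was compared between classes as a description. The ratio within free RNA was not measured, so this does not test the source of Ptgds in neurons. The 7 genes include Slc47a1, with 1, 8 and 7 UMIs in meningeal fibroblast-like nuclei against 62, 153 and 247 in neurons. The ratio of Ptgds to the 7 genes was 2.14 (1.97 to 2.33) in meningeal fibroblast-like nuclei and 4.24 (3.85 to 4.66) in neurons of C57BL/6. In Nav1 KO it was 4.36 (4.17 to 4.57) and 5.72 (5.37 to 6.11), and in BTBR 3.49 (3.32 to 3.68) and 5.27 (4.93 to 5.63). Neurons as a whole therefore had more Ptgds per meningeal UMI than this class in each library. The mitral or tufted cluster went the other way, at 1.92 (1.62 to 2.28) in Nav1 KO and 2.40 (1.88 to 3.07) in BTBR, with only 6 Ptgds and 4 meningeal UMIs in C57BL/6, and it held 213 of the 1109 meningeal UMIs of Nav1 KO neurons. Outer meningeal-like nuclei stood at 0.969, 1.66 and 1.94, and the cluster with both meningeal lists at 7.16, 8.97 and 9.65. Precursor-like nuclei had 4.09, 6.14 and 4.49, and ensheathing glia-like nuclei 5.00, 4.88 and 4.43, with intervals that overlapped those of neurons in each library. The ensheathing value of C57BL/6 came from 5 Ptgds UMIs over 1 meningeal UMI (0.559 to 236), so its overlap carries no information. Astrocyte-like nuclei were lower, at 1.40, 2.88 and 1.13. Oligodendrocyte-like nuclei were higher, at 9.64 (6.83 to 13.99), 19.4 (13.7 to 28.5) and 38.1 (23.3 to 67.1). Per UMI of the 4 myelin genes, Ptgds counts were 0.952, 3.07 and 2.19 in neurons and 0.221, 0.506 and 0.509 in oligodendrocyte-like nuclei.

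Neurons with a Ptgds UMI also had more UMIs of the meningeal genes. At 1000 UMIs per nucleus, the meningeal genes were 2.69 times (1.76 to 4.01) as high in C57BL/6 neurons with Ptgds as in those without, 1.40 times (1.07 to 1.81) in Nav1 KO and 1.90 times (1.44 to 2.48) in BTBR. The myelin genes were 2.05, 1.44 and 1.63 times as high, the 3 astrocyte genes 1.16, 1.01 and 1.21 times and the 3 microglia genes 1.91 times (0.917 to 3.61), 0.483 times (0.151 to 1.20) and 1.10 times (0.640 to 1.80). These ratios depended on the depth drawn, above all in Nav1 KO. At 500 UMIs the meningeal genes stood at 3.36, 2.51 and 2.34 times, each with an interval above 1. The myelin genes stood at 1.75 times (1.27 to 2.36), 2.98 times (2.36 to 3.73) and 1.34 times (0.993 to 1.77), the last of which included 1. The astrocyte genes stood at 1.24, 1.23 and 1.26 times, and the microglia genes at 2.05 times (0.726 to 4.72), 2.48 times (1.09 to 5.13) and 1.31 times (0.604 to 2.54). Differences between these lists were not tested. Drawing equal UMIs did not make the original depths equal. From the shallowest to the deepest bin of neurons, the meningeal genes fell from 40.2 to 11.1, 69.6 to 17.0 and 75.3 to 18.1 CPM. The myelin genes fell from 150 to 54.0, 112 to 41.8 and 122 to 61.6 CPM, and Ptgds also fell. The part of original depth in these ratios was not tested.

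The comparison of Nav1 KO and of BTBR with C57BL/6 was then made within classes. Both ratios share the 1 C57BL/6 library, so they are not independent. On CPM, Ptgds in neurons was 2.34 times (2.23 to 2.46) as high in Nav1 KO as in C57BL/6. That was a place of 92 among 15843 genes measured, of which 5.00% were at least 1.5-fold higher. Ptgds was 2.09 times (1.99 to 2.19) as high in BTBR, a place of 356 among 15739 genes, of which 9.20% passed that fold. The neurons differed in depth, with medians of 2151 UMIs in C57BL/6, 3023 in Nav1 KO and 2608.5 in BTBR. Per neuron, Ptgds stood at 0.180, 0.602 and 0.461 UMIs. In depth bins with medians of 2659 UMIs in C57BL/6 and 2457 in Nav1 KO, it was 0.172 and 0.554. The BTBR bins at 2167 and 3149 UMIs held 0.374 and 0.405. Ratios between libraries at like depth were not computed in any class. In meningeal fibroblast-like nuclei the ratios were 2.18 (2.07 to 2.30), a place of 4 among 1276 genes with 3.68% past the fold, and 1.87 (1.77 to 1.97), a place of 18 among 1265 genes with 5.77% past it. In oligodendrocyte-like nuclei they were 2.47 (2.17 to 2.83), a place of 3 among 963 genes with 7.06% past the fold, and 3.24 (2.84 to 3.71), a place of 1 among 782 genes with 17.9% past it. Ptgds was chosen for this pattern, so these places are a description.

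A higher level was found in most classes. All of them come from the same libraries, so they are not independent readings. Whether 1 source class lay behind the higher level was not tested. All 7 neuron clusters were at least 1.5-fold higher in both libraries, from 2.00 to 4.16 times in Nav1 KO and from 1.78 to 4.75 times in BTBR. Both highest ratios belonged to the mitral or tufted cluster, where C57BL/6 gave 6 Ptgds UMIs in 38 nuclei. Their intervals were 1.90 to 11.4 and 2.15 to 13.1. In the other clusters the highest ratios were 3.31 and 2.49. Among 10 named non-neuronal classes, the interval of the ratio lay above 1 in 9 for Nav1 KO and in 8 for BTBR. These counts include classes in which much of the Ptgds came from 1 nucleus. Without the top nucleus of each library, pericyte-like levels were 640, 959 and 1506 CPM in C57BL/6, Nav1 KO and BTBR. They rested on 11, 41 and 41 UMIs. Microglia-like levels were then 253, 895 and 393 CPM, from 13, 87 and 31 UMIs. Intervals of the ratios were not computed without the top nuclei. Endothelial-like nuclei were the exception in Nav1 KO at 0.720 times (0.580 to 0.8996), and in BTBR they stood at 0.973 times (0.779 to 1.22). The C57BL/6 value behind both rests on 1 nucleus, and without the top nucleus of each library the levels were 678 CPM in C57BL/6, 1668 CPM in Nav1 KO and 2284 CPM in BTBR. Astrocyte-like nuclei were 1.84 times (1.52 to 2.24) as high in Nav1 KO and 0.817 times (0.647 to 1.03) in BTBR.

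Ptgds differed in this from the sum of the other genes of its source classes. Within meningeal fibroblast-like nuclei, the sum of the 7 meningeal genes was 1.07 times (0.988 to 1.16) the C57BL/6 level in Nav1 KO and 1.15 times (1.05 to 1.25) in BTBR. Within oligodendrocyte-like nuclei, the sum of the 4 myelin genes was 1.08 times (1.004 to 1.17) and 1.41 times (1.31 to 1.52). The myelin genes of BTBR differed among themselves, with Mbp at 1.70 times (1.55 to 1.86) and Mobp at 0.574 times (0.417 to 0.779). In neurons the meningeal genes were 1.73 and 1.68 times and the myelin genes 0.725 and 0.906 times the C57BL/6 level. Single meningeal genes varied around these sums. Igfbp2 stood at 2.04 times (1.52 to 2.78) and 2.24 times (1.66 to 3.07) in the class and at 3.55 and 2.47 times in neurons. Dcn, the decorin gene, stood at 2.37 times (1.77 to 3.22) and 0.871 times (0.605 to 1.25) in neurons but at 1.29 times (0.988 to 1.72) and 1.01 times in the class. Slc47a1 stood at 2.07 and 3.42 times in neurons, and its 1, 8 and 7 UMIs in the class were too few to place it there. In neurons Igfbp2 gave 104 UMIs in C57BL/6, 440 in Nav1 KO and 300 in BTBR, and Slc47a1 62, 153 and 247. The meningeal sum in neurons therefore leaned on these genes. Ranbp3l stood at 0.528 times (0.408 to 0.679) and 1.02 times in neurons. Slc6a13 stood at 1.43 and 1.98 times there, Col1a2 at 1.38 and 0.982 times and Igf2 at 1.18 and 1.49 times. Whether the Ptgds of neurons was free RNA was not tested, and for any free RNA, fewer cells of a type in the tissue and less RNA per cell cannot be told apart. The part of dissection, pooling and nuclear lysis in these ratios was not tested.

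**Figure D5:**
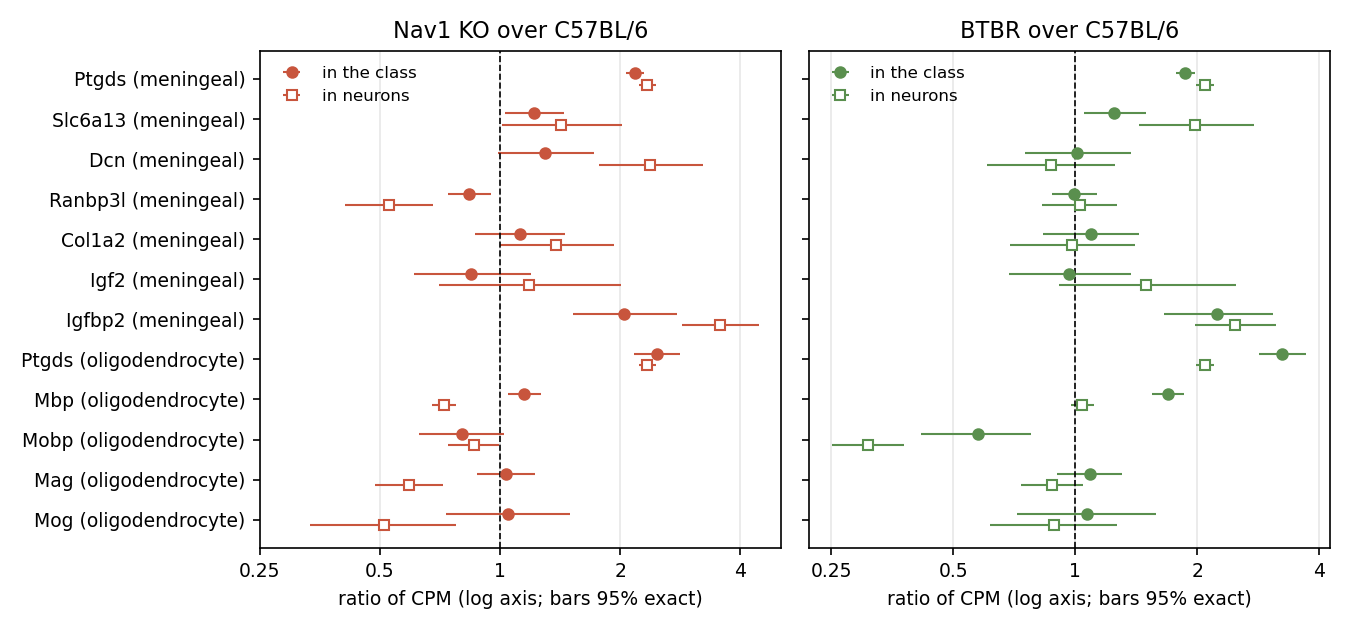
Ratio of CPM, Nav1 KO over C57BL/6 (left) and BTBR over C57BL/6 (right), on a log axis with 95% exact intervals, for Ptgds and reference genes within meningeal fibroblast-like or oligodendrocyte-like nuclei (filled) and within neurons (open). Ptgds lies at 1.87 to 3.24 in its classes and at 2.09 to 2.34 in neurons. Reference genes are drawn singly, without Slc47a1. In their classes they run from 0.574 for Mobp to 2.24 for Igfbp2, both in BTBR.

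Among oligodendrocyte-like nuclei, those with and without Ptgds were compared at 1000 UMIs for genes of mature oligodendrocyte states. Anln, which encodes the actin-binding protein anillin, was lower by value in nuclei with Ptgds. It stood at 0.319 times (0.149 to 0.624) in C57BL/6, 0.450 times (0.232 to 0.873) in Nav1 KO and 0.728 times (0.216 to 3.13) in BTBR, and at 500 UMIs at 0.529, 0.2495 and 0.331 times with each interval below 1. Opalin, an oligodendrocyte membrane protein gene, was higher by value at 1000 UMIs, with 16 UMIs in 33 nuclei with Ptgds against 6 in 45 without in C57BL/6, 17 in 55 against 1 in 26 in Nav1 KO and 9 in 34 against 0 in 9 in BTBR. At 500 UMIs its ratios were 1.83 (0.902 to 3.75), 3.85 (0.872 to 35.2) and 1.62 (0.309 to 16.0), each with an interval that included 1. Hapln2, a matrix protein gene of the nodes of Ranvier, stood at 0.330 times in C57BL/6 but 0.968 and 1.25 times in the others. Apod stood at 1.09, 0.689 and 0.419 times (0.193 to 0.947 in BTBR), and at 500 UMIs each interval included 1. Car2 stood at 0.897, 0.774 and 1.32 times, and at 500 UMIs at 1.10, 1.39 and 0.637 times (0.416 to 0.983 in BTBR). Il33, Klk6, Hopx, Ctps and S100b gave at most 9 UMIs in either set of nuclei at 1000 UMIs. Among them only Klk6 in Nav1 KO, with 1 UMI against 5, had an interval below 1. At 500 UMIs that gene gave 3 against 0. The myelin gene Mbp stood at 1.01 times (0.812 to 1.26), 0.747 times (0.614 to 0.911) and 0.932 times (0.713 to 1.23) at 1000 UMIs, and at 500 UMIs its 3 intervals included 1.

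The genes most like Ptgds over 56 cluster and library sums were taken by Pearson correlation of log2(CPM + 1) among 12707 genes. They were Aebp1 (0.942), Cped1 (0.921), Ranbp3l (0.909), Slc13a4 (0.906), Slc22a6 (0.904), Slc6a13 (0.904), Apod (0.899), Foxd1 (0.895), Foxc1 (0.892) and Rbpms (0.886). The points share libraries and depths, so these values describe a likeness over classes of nuclei and carry no test.

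The other genes of prostaglandin metabolism showed different places. Of 38 listed genes 37 were in the matrices and 29 had at least 20 UMIs in each library. Of these 29, 9 had the same highest class in each library, and Ptgds and the retinoid carrier gene Crabp2 were those highest in meningeal fibroblast-like nuclei. The other D synthase, Hpgds, was highest in microglia-like nuclei at 1055, 618 and 601 CPM, against 143, 88.4 and 96.7 CPM in neurons, although the pseudogene Gm17147 lies within Hpgds on the other strand. Ptgs1, the cyclooxygenase that makes the substrate of both synthases, was also highest there, at 249, 359 and 283 CPM against 9.27, 10.2 and 8.63 CPM in neurons. The inducible cyclooxygenase Ptgs2 stood at 10.2, 11.1 and 11.5 CPM in neurons and gave at most 3 UMIs in the meningeal fibroblast-like nuclei of any library.

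The prostaglandin D receptor Ptgdr lay in the meningeal classes, as the synthase did. Its level was 87.6, 83.0 and 75.4 CPM in outer meningeal-like nuclei and 68.2, 65.4 and 70.5 CPM in meningeal fibroblast-like nuclei, against 0.440, 0.764 and 0.755 CPM in neurons. The intervals of the libraries overlapped in both meningeal classes, which those of Ptgds did not. However, Ptgdr gave only 78, 221 and 118 UMIs in all nuclei, so its intervals are wide and the overlap says little. The second receptor, Ptgdr2, gave only 3, 5 and 0 UMIs in all nuclei, so its place could not be read. Apod, which encodes another lipocalin, was highest in ensheathing glia-like nuclei at 3003, 3785 and 2306 CPM, followed by meningeal fibroblast-like nuclei at 1346, 2111 and 1947 CPM.

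In neurons, 26 of the listed genes had at least 20 UMIs in the libraries compared. In Nav1 KO, 5 were at least 1.5-fold higher than in C57BL/6 and 4 lower, against 5.00% higher and 7.33% lower over all genes. The higher ones were Ptgds, the prostaglandin-degrading dehydrogenase gene Hpgd (3.03 times), Apod (3.004 times), the carbonyl reductase gene Cbr1 (1.78 times) and Ptges2 (1.53 times). In BTBR, 5 were higher and 5 lower, against 9.20% and 8.19%, and the highest was the phospholipase gene Pla2g4e at 4.98 times. Hpgds moved opposite to Ptgds in Nav1 KO neurons, at 0.617 times the C57BL/6 level.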

How the data were processed

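The authors deposited 1 gene-by-barcode matrix of UMI counts per library, made with Cell Ranger 6.0.0 on mm10 per the submitters' processing notes. Whether intronic reads were counted is not given in the sources used here. The labels placed each library in its group, and the gene and the lists were chosen with earlier results of these data known.

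The study's filter was applied (200 or more genes, mitochondrial share below 10%) and left 14630, 14056 and 14777 nuclei in C57BL/6, Nav1 KO and BTBR, at 38704723 to 50965774 UMIs per library. Nuclei were clustered in Seurat 5.3.0 (R 4.3.3) on 2000 variable genes without Ptgds, with 10 principal components at resolution 0.3. Non-neuronal clusters, by their marker lists, went through a second round with 20 components at resolution 0.5. A non-neuronal class took the name of a list whose median marker was at least 2-fold higher, with at least 3 markers detected and 1 among its 10 leading genes, and with the next list far behind. Neuron clusters were called excitatory or inhibitory by whichever of summed Slc17a7 and Slc17a6 or summed Gad1 and Gad2 CPM was higher, and medium spiny or mitral or tufted by the 2-fold rule. These naming limits were set after the data had been seen. The automatic threshold of Scrublet (scanpy 1.11.5) called 1, 1 and 0 doublets and so did not work, and no doublets were removed.

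Counts were summed per class and library and given as CPM with exact Poisson 95% intervals. Intervals of ratios were exact and binomial, and shares had Clopper-Pearson intervals. UMIs were counted, and intervals cover counting error only. A gene was read as past the fold at a ratio of 1.5 with at least 20 counts in both libraries. The ratio and fold steps were checked on simulated counts. Named genes were Ptgds, a prostaglandin list (Fam213b of the list was not used), reference and marker genes, mature oligodendrocyte genes (1 listed oligodendrocyte gene is not reported here and was taken out of the sums) and the 10 genes most correlated with Ptgds among those with at least 500 counts. Alternatives included TMM in edgeR 4.0.16 and size factors in DESeq2 1.42.0.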

Additional observations from a re-analysis of the deposited data

Results flagged for a closer look

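Barcodes left out by the quality filter, which enter no comparison above, were richer in Ptgds than the nuclei that were kept. Their level was 516 CPM (473 to 561, from 772 barcodes and 543 Ptgds UMIs) in C57BL/6, 2211 CPM (2126 to 2298, from 567 barcodes) in Nav1 KO and 1331 CPM (1257 to 1408, from 461 barcodes) in BTBR. That was 2.69, 3.04 and 2.61 times the level of the kept nuclei of the same library. What these barcodes hold was not tested.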

How the results depend on the processing

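No paired analysis was possible because each group was 1 library. Of the recomputed values that answer a comparison, 82 stayed within the counting interval or within 1.5 times a count of genes, 40 moved and 1 reversed. Ptgds stayed higher than in C57BL/6 in neurons in every alternative run, at 2.29 to 2.82 times in Nav1 KO and 2.00 to 2.29 times in BTBR. None of these runs matched the depth of neurons between libraries. The Nav1 KO ratio moved to 2.50 with 20 components, 2.70 clustered without BTBR, 2.82 by marker UMIs of each nucleus, 2.49 with TMM, 2.49 with DESeq2 size factors and 2.61 in neurons without a reference gene UMI (added after seeing the data). The BTBR ratio moved to 2.29 by marker UMIs.

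The ratio of meningeal fibroblast-like nuclei over neurons moved in C57BL/6 to 161 with Ptgds among the variable genes, 161 by marker UMIs and 41.7 at like depth. In Nav1 KO it moved to 128 with 20 components, 121 without BTBR, 130 by marker UMIs, 134 under 5% mitochondrial counts, 145 without top doublet scores, 131 without the top nucleus and 43.3 at like depth. In BTBR it moved to 128 with 20 components, 156 by marker UMIs, 142 at 500 genes, 144 without top doublet scores and 35.7 at like depth.

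For oligodendrocyte-like nuclei it moved in C57BL/6 to 17.1 by marker UMIs and 6.49 at like depth, in Nav1 KO to 22.1 with 20 components, 16.8 without BTBR, 13.2 by marker UMIs, 21.8 without the top nucleus and 9.38 at like depth, and in BTBR to 19.4 by marker UMIs, 30.5 without the top nucleus and 8.49 at like depth. For ensheathing glia-like nuclei it moved in Nav1 KO to 8.53 at resolution 0.5, 8.70 with Ptgds among the variable genes, 4.27 without BTBR, 8.98 by marker UMIs and 2.52 at like depth, and in BTBR to 2.31 at like depth. In C57BL/6 it turned to 0 at 500 genes, where 7 nuclei with no Ptgds UMI remained. The top-nucleus and like-depth settings were also added after seeing the data. With a limit of 1 count in place of 20, genes at least 1.5-fold higher in neurons rose from 792 to 2280 in Nav1 KO and from 1448 to 3195 in BTBR. With TMM they were 1123 and 1377. Apart from fewer nuclei at 500 genes and more genes at 1 count, the cause was not tested.

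At 500 in place of 1000 UMIs, shares with Ptgds were 70.5%, 84.5% and 88.4% in meningeal fibroblast-like nuclei and 4.43%, 10.6% and 9.13% in neurons. In meningeal fibroblast-like nuclei the C57BL/6 interval then lay below those of Nav1 KO and BTBR, whereas the intervals at 1000 UMIs overlapped. The 15 ensheathing nuclei of C57BL/6 limit every statement on that class there.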
